A study of Homo sapiens with 4 samples.

Results

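The amnion and surface ectoderm genes described here are GABRP, ITGB6, VTCN1, TNMD, TFAP2A, TFAP2B, TFAP2C and TP63, 8 protein-coding genes of the 60234 genes counted. They were found in the count table by Ensembl identifier. They were selected on values measured in RA-treated GFP-negative cells: GABRP, ITGB6 and VTCN1 are classifier genes of fetal amnion in the KeyGenes atlas and were picked because they were abundant in these cells, so the members' levels there, and every comparison with that library, are a description with no test. The cells were of the NKX2.5:GFP line, an established line of human embryonic stem cells in which an allele of the cardiac gene NKX2-5 carries eGFP and green cells are those of the cardiac lineage. The line was differentiated towards the heart as spin embryoid bodies, aggregates formed by centrifugation. Cultures received 1 µM retinoic acid (RA) between day 4 and day 7, or the solvent DMSO over the same days as control (CT), and their cells were sorted by GFP at day 31. This gave 4 groups with 1 library each: RA-treated GFP-positive cells (RAplus), RA-treated GFP-negative cells (RAminus), control GFP-positive cells (CTplus) and control GFP-negative cells (CTminus). With 1 library per group there was no replicate check of any difference, no test between groups was made, and differences between the separate RA and control cultures cannot be told apart from the treatment. Reads assigned to genes summed to 28125727 in RAplus, 26222787 in RAminus, 28643091 in CTplus and 4371101 in CTminus. The last library was the shallowest, and the other libraries were 5.999 to 6.553 times as deep. Levels are given as CPM, a gene's reads relative to all reads of its library after scaling with TMM factors, with exact Poisson 95% intervals, and the floor for a gene with 0 reads, 3 reads, was 0.639 CPM in CTminus and between 0.105 and 0.117 CPM in the other libraries.

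The amnion is the membrane that encloses the embryo in fluid. Its epithelium arises from the epiblast and is continuous, at the margin of the embryonic disc, with the surface ectoderm, the layer that forms the epidermis. Transcription factors of the TFAP2 family act in both epithelia and in the neural crest, whereas TP63 is the regulator that stratified epithelia such as the epidermis depend on. GABRP, ITGB6 and VTCN1 code for proteins of the cell surface found in several epithelia, and TNMD for a membrane protein best known from tendon, so none of these genes alone marks the amnion.

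The genes lie on 7 chromosomes, and only TFAP2A and TFAP2B share a chromosome, on opposite strands and far apart. RefSeq promoter entries, from 250 bases before to 50 bases after a gene's start, matched 7 of the 8 members with 8 entries, TFAP2A having 2, and TFAP2C was not matched. The table is of build GRCh38.p14, and the positions given here come from exact matches of each entry to GRCh37, the build of the counts, where each entry was found 1 time. Both strands were searched for the TFAP2 palindrome GCCNNNGGC, the GATA motif AGATAA, a pair of p63 core half-sites CATGNNNNNNCATG and the TATA box TATAAA, which occurred in 23.2%, 10.3%, 0.373% and 11.5% of all 35116 promoters of the table. No matches of different motifs overlapped in the members. The promoters of the 3 amnion classifier genes that led to the choice, VTCN1, GABRP and ITGB6, are shown first, then those of TFAP2A and TNMD, the members with a forward TATA box, and capitals mark the motif matches. VTCN1 is shown from chr1:117753500-117753799 (minus strand), GABRP from chr5:170210479-170210778 (plus strand), ITGB6 from chr2:161056734-161057033 (minus strand), the first TFAP2A entry from chr6:10419843-10420142 (minus strand) and TNMD from chrX:99839683-99839982 (plus strand), all in GRCh37.
VTCN1: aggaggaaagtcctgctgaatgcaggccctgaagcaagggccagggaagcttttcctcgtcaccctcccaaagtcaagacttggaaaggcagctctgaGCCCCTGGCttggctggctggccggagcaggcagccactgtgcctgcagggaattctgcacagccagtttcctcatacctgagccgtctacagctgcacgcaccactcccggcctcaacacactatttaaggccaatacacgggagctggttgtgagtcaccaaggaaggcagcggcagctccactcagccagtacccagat
GABRP: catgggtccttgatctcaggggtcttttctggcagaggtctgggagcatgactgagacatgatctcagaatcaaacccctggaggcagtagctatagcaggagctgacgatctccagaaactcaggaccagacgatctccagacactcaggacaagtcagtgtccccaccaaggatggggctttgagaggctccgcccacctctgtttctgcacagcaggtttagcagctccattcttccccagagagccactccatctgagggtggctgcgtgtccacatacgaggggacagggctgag
ITGB6: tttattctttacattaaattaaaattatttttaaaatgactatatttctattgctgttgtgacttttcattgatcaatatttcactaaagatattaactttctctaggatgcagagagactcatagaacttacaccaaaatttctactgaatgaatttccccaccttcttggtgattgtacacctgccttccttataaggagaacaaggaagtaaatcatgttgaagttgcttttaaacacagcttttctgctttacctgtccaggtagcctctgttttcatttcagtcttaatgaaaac
TFAP2A: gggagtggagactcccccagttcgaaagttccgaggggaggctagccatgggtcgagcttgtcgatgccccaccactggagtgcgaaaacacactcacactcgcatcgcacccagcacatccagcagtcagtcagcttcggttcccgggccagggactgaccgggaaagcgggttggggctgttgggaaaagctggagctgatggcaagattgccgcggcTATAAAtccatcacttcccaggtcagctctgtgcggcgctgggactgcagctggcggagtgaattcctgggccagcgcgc
TNMD: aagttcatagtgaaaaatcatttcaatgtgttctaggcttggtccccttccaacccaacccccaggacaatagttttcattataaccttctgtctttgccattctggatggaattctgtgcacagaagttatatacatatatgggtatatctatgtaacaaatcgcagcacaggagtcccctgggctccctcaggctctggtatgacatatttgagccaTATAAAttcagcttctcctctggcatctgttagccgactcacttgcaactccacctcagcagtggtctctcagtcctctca

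VTCN1 held the only match to the TFAP2 palindrome among the 8 entries, 152 bases before its start. The TATA box began 30 bases before the start of TFAP2A and 31 bases before that of TNMD. Reverse matches to the same letters lay 202 bases before the start of TFAP2B and within the 50 bases after the start of TP63. GABRP, ITGB6 and the second TFAP2A entry had no match, and neither the GATA motif nor the p63 pair was found in any of the 8 entries. A match describes the letters only, and its absence says only that these letters are not in the window. Base composition differed among the members: G and C made up 58.7% of the VTCN1 window, equal to the median of all promoters, 56.0% of that of GABRP and 61.7% of the first TFAP2A entry, but 31.7% of the ITGB6 window and 44.3% of that of TNMD.

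Among the cell surface proteins, GABRP (ENSG00000094755, chr5:170190354-170241051 of GRCh37, plus strand) codes for the pi subunit of the GABA-A receptor, a chloride channel opened by the transmitter GABA that is found with this subunit mainly outside the nervous system. The promoter window shown above lies inside this annotated gene, downstream of its outermost start. GABRP had 3411 reads in RAminus, 225 in RAplus, 43 in CTminus and 31 in CTplus. These were 133 CPM (interval 129 to 137), 8.41 CPM (7.35 to 9.59), 9.16 CPM (6.63 to 12.3) and 1.08 CPM (0.735 to 1.54). RAminus thus had by far the highest level, CTplus the lowest, and the intervals of RAplus and CTminus overlapped. In these bulk libraries, fewer cells that express a gene and less RNA per cell cannot be told apart. Intervals and floors cover counting error only, as reads made by PCR are not independent molecules. GABRP was 14.5-fold higher in RAminus than in CTminus (Clopper-Pearson 95% interval of the ratio 10.8 to 20.1), a difference of 3.72 in log2(CPM + 1). Against RAplus, the GFP-positive cells of the same culture, the ratio in RAminus was 15.8 (13.8 to 18.2). The comparisons that leave RAminus out went the same way: GABRP was 8.46-fold higher in CTminus than in CTplus (5.21 to 13.9) and 7.78-fold higher in RAplus than in CTplus (5.33 to 11.7). Both RA and the GFP-negative fraction therefore had the higher GABRP level in each pair of libraries. Of the exon bases of GABRP, 77 of 4621 are shared with an antisense gene, ENSG00000253348, and as reads were counted without strand, their origin is uncertain.

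Other GABA-A receptor subunits were tested beside GABRP. Of 13 with at least 4 reads in RAminus or CTminus, 2 were at least 2-fold higher in RAminus and 1 lower, with a median log2 difference of -0.08 (-0.11 as log2 ratios with genes at 0 reads set to the floor), beside a median of 0.16 (-0.10) over all 25190 genes tested. Their summed level, 49.2 CPM in RAminus, 51.3 CPM in RAplus, 71.8 CPM in CTminus and 39.5 CPM in CTplus, was below the level of GABRP alone in RAminus and above it in the other libraries. GABRE, the epsilon subunit, was their most abundant gene in both GFP-negative libraries with 16.1 CPM in RAminus and 27.3 CPM in CTminus, against GABRB2 in RAplus and GABRA2 in CTplus. The subunits GABRA4 and GABRB1, at 0 reads in CTminus, were the 2 called higher in RAminus, and with CTminus at its floor GABRA4 was at least 2.07-fold higher while the bound of GABRB1, 1.65-fold, was under 2-fold. GABRB2 was lower, by -1.28. GABRQ was not analysed here.

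ITGB6 (ENSG00000115221, chr2:160956178-161056824, minus strand) codes for the beta-6 integrin subunit, which pairs with the alpha-V subunit in epithelia, binds fibronectin and tenascin and activates latent TGF-beta. It had 827 reads in RAminus, 125 in RAplus, 36 in CTminus and 24 in CTplus. The levels were 32.2 CPM (30.1 to 34.5), 4.67 CPM (3.89 to 5.57), 7.67 CPM (5.37 to 10.6) and 0.838 CPM (0.537 to 1.25). The order of the libraries was that of GABRP, with RAminus highest and CTplus lowest, and the intervals of CTminus and RAplus met between 5.37 and 5.57 CPM. ITGB6 was 4.20-fold higher in RAminus than in CTminus (3.01 to 6.04; log2 difference 1.94) and 6.90-fold higher in RAminus than in RAplus (5.71 to 8.39). Between the control fractions the ratio of CTminus to CTplus was 9.15 (5.31 to 16.0), and in GFP-positive cells ITGB6 was 5.58-fold higher with RA (3.58 to 9.04). The gene shares 966 of its 5785 exon bases with ENSG00000285155 on the same strand, which leaves the origin of reads there uncertain.

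The partner of ITGB6, ITGAV, differed far less between the libraries, with 421 CPM in RAminus, 328 CPM in RAplus, 345 CPM in CTminus and 285 CPM in CTplus. Of 13 listed genes of the alpha-V integrins, their ligands and latent TGF-beta, 2 were at least 2-fold higher in RAminus than in CTminus and none lower, with a median log2 difference of 0.43 (0.44 as log2 ratios). These were VTN, which codes for the ligand vitronectin, by 2.70, and LTBP1, which codes for a latent TGF-beta binding protein, by 1.19. The summed level of the list was 13310 CPM in RAminus, 4249 CPM in RAplus, 8599 CPM in CTminus and 2814 CPM in CTplus, and FN1, the fibronectin gene, was the most abundant in each.

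VTCN1 (ENSG00000134258, chr1:117686209-117753582, minus strand) codes for B7-H4, a surface protein of the B7 family that restrains T cells. It had 528 reads in RAminus, 24 in RAplus, 17 in CTplus and 0 in CTminus. The levels were 20.6 CPM (18.9 to 22.4) in RAminus, 0.897 CPM (0.575 to 1.34) in RAplus and 0.593 CPM (0.346 to 0.9499) in CTplus. For the 0 reads in CTminus the floor was 0.639 CPM and the exact Poisson upper limit 0.786 CPM. VTCN1 was therefore high in RAminus alone, and the CPM intervals of the other libraries overlapped. With CTminus taken at its floor of 3 reads, RAminus was 32.2-fold higher. The Clopper-Pearson interval of this ratio ran from 26.1 upwards, so it allows a lower fold than the floor does. RAminus was 22.9-fold higher than RAplus (15.2 to 36.1). In GFP-positive cells the ratio of RAplus to CTplus was 1.51 (0.779 to 3.00), which includes 1, and the interval of the ratio of CTminus to CTplus reached up to 1.48. A VTCN1 level in CTminus equal to that of CTplus is therefore not excluded at this depth. Unlike GABRP and ITGB6, VTCN1 showed no detectable difference in either comparison that leaves RAminus out.

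Relatives of VTCN1 in the B7 family showed little of this. None of 7 tested was at least 2-fold higher in RAminus than in CTminus, and 1 was lower, NCR3LG1, the ligand of the natural killer cell receptor NKp30, by -1.08, with a family median of 0.10 (-0.41 as log2 ratios). The summed level was 261 CPM in RAminus, 154 CPM in RAplus, 217 CPM in CTminus and 129 CPM in CTplus, of which CD276, the gene of B7-H3, took between 81.9% and 91.0%.

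TNMD (ENSG00000000005, chrX:99839933-99854882, plus strand) codes for tenomodulin, a membrane glycoprotein of tendon and ligament cells, and is also listed by the KeyGenes atlas among its classifier genes of fetal amnion, though it also served there for a second tissue. It had 87 reads in RAminus, 33 in RAplus, 5 in CTminus and 53 in CTplus. This gave 3.39 CPM (2.72 to 4.18), 1.23 CPM (0.849 to 1.73), 1.06 CPM (0.346 to 2.48) and 1.85 CPM (1.39 to 2.42). TNMD had the flattest profile of the members, and CTplus, the library in which GABRP and ITGB6 were lowest, came after RAminus in its order. The ratio of RAminus to CTminus was 3.18 (1.31 to 10.1; log2 difference 1.09), resting on 5 reads in CTminus, and that of RAminus to RAplus was 2.75 (1.82 to 4.24). Neither CTminus against CTplus, with a ratio of 0.576 (0.180 to 1.43), nor RAplus against CTplus, with 0.667 (0.418 to 1.05), had an interval that left out 1. In 1 random draw, all libraries were thinned to the depth of CTminus. The log2 differences of these comparisons, -0.46 and -0.35, then changed sign to 0.50 and 0.24.

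Other tendon and muscle genes were tested beside TNMD. Of 10 such genes, 3 were at least 2-fold higher in RAminus than in CTminus and 1 lower, with a median of -0.20 (-0.32 as log2 ratios). DCN, the gene of the matrix proteoglycan decorin, was higher by 1.49, THBS4 by 1.47 and CNMD, which codes for chondromodulin, the closest relative of tenomodulin, by 1.04, whereas MYOG, a transcription factor of skeletal muscle, was lower by -1.44. The list summed to 2078 CPM in RAminus, 947 CPM in RAplus, 1277 CPM in CTminus and 1271 CPM in CTplus, with DCN most abundant in the GFP-negative and COL2A1 in the GFP-positive libraries. MYF5 was at 0 reads in all libraries but RAminus, where it had 3 reads, and SCX, the tendon transcription factor, was not analysed here.

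**Figure D1:**
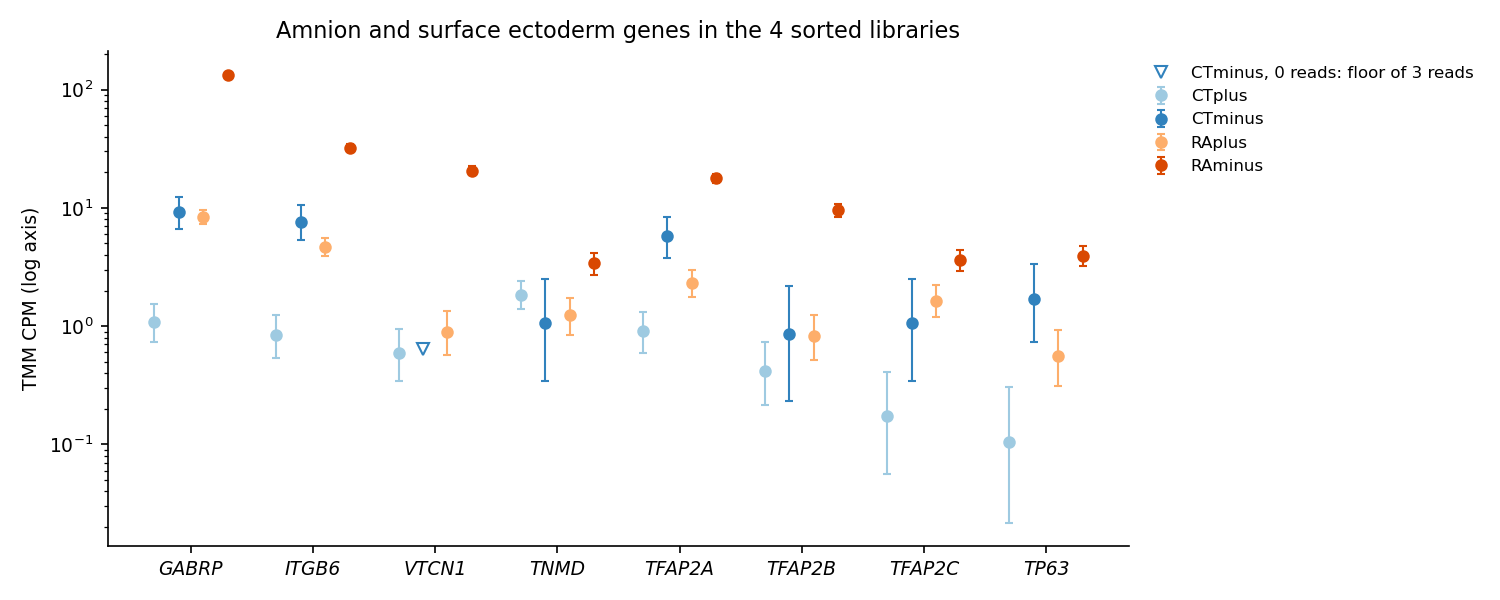
TMM CPM of the 8 members (log axis) in the 4 libraries, 1 point per library with its exact Poisson 95% interval; the open triangle is VTCN1 in CTminus, with 0 reads, drawn at the floor of 3 reads. RAminus has the highest point for every member, from 3.39 CPM for TNMD to 133 CPM for GABRP.

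Among the transcription factors, TFAP2A (ENSG00000137203, chr6:10393419-10419892, minus strand) codes for AP-2 alpha, needed in surface ectoderm and neural crest development. It had 455 reads in RAminus, 62 in RAplus, 27 in CTminus and 26 in CTplus. In CPM this was 17.7 (16.1 to 19.4), 2.32 (1.78 to 2.97), 5.75 (3.79 to 8.37) and 0.907 (0.593 to 1.329). Here the 4 intervals did not overlap, and the order was RAminus, CTminus, RAplus and CTplus. TFAP2A was 3.08-fold higher in RAminus than in CTminus (2.09 to 4.73; log2 difference 1.47) and 7.65-fold higher than in RAplus (5.86 to 10.1). CTminus had 6.34 times the level of CTplus (3.56 to 11.3), and RAplus 2.56 times that of CTplus (1.59 to 4.21), a log2 difference of 0.80 that stayed under the 2-fold threshold set on CPM + 1. Antisense genes share 438 (TFAP2A-AS1) and 941 (TFAP2A-AS2) of the 8220 exon bases, which leaves the origin of reads there uncertain.

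TFAP2B (ENSG00000008196, chr6:50786436-50815332, plus strand) codes for AP-2 beta, a factor of neural crest, kidney and ductus arteriosus development. It had 244 reads in RAminus, 22 in RAplus, 4 in CTminus and 12 in CTplus, or 9.51 CPM (8.35 to 10.8), 0.823 CPM (0.516 to 1.25), 0.852 CPM (0.232 to 2.18) and 0.419 CPM (0.216 to 0.732). As for VTCN1, only RAminus stood apart, and the intervals of the other libraries overlapped. The ratio to CTminus was 11.2 (4.30 to 41.3; log2 difference 2.505), wide because of the 4 reads in CTminus, and the ratio to RAplus was 11.6 (7.46 to 18.8). CTminus against CTplus gave a ratio of 2.03 (0.478 to 6.71) and RAplus against CTplus 1.96 (0.931 to 4.35), so that no difference was detectable between these libraries.

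TFAP2C (ENSG00000087510, chr20:55204362-55214339, plus strand) codes for AP-2 gamma, a factor of trophoblast, early germ cells and amnion. It had 93 reads in RAminus, 44 in RAplus, 5 in CTminus and 5 in CTplus. The levels were 3.62 CPM (2.93 to 4.44), 1.65 CPM (1.20 to 2.21), 1.06 CPM (0.346 to 2.48) and 0.174 CPM (0.0567 to 0.407). The RA library was the higher in each fraction, and RAplus came nearer to RAminus than for the other TFAP2 genes. TFAP2C was 3.40-fold higher in RAminus than in CTminus (1.41 to 10.7; log2 difference 1.16) and 9.43-fold higher in RAplus than in CTplus (3.75 to 30.5; log2 difference 1.17). It was 2.20-fold higher in RAminus than in RAplus (1.52 to 3.23) and 6.10-fold higher in CTminus than in CTplus (1.40 to 26.5), the last resting on 5 reads in either library. Because these levels are near 1 CPM, log2 differences with a pseudocount of 1 CPM understate the ratios: the pair of 5 reads gave 0.81.

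TP63 (ENSG00000073282, chr3:189349178-189615065, plus strand) codes for p63, which maintains the basal cells of stratified epithelia. It had 101 reads in RAminus, 15 in RAplus, 8 in CTminus and 3 in CTplus. In CPM these were 3.94 (3.21 to 4.78), 0.561 (0.314 to 0.925), 1.70 (0.736 to 3.36) and 0.105 (0.0216 to 0.306). Both GFP-negative libraries were above the GFP-positive library of their treatment, and the intervals of RAplus and CTminus overlapped. TP63 was 2.31-fold higher in RAminus than in CTminus (1.13 to 5.50), a log2 difference of 0.87 that missed the 2-fold threshold on CPM + 1 and reached 1.10 with a pseudocount of 0.25 CPM. RAminus had 7.02 times the level of RAplus (4.06 to 13.0), CTminus 16.3 times that of CTplus (3.91 to 95.2) and RAplus 5.36 times that of CTplus (1.52 to 28.9), the last 2 against 3 reads. Gene-level counts do not separate the long and short p63 isoforms, nor the isoforms of the other members.

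The TFAP2 relatives and cofactors, and TP73 with p63 target genes, were listed as the surroundings of these factors. Of 7 tested TFAP2 relatives, cofactors and repressors, 1 was at least 2-fold higher in RAminus than in CTminus, the chromatin reader YEATS4 by 1.28, and none was lower, with a median of 0.11 (0.12 as log2 ratios). Their sum was 249.8 CPM in RAminus, 245 CPM in RAplus, 213 CPM in CTminus and 353 CPM in CTplus, led by the coactivator CITED2 in all libraries but RAplus, where CITED4 led. Of the remaining TFAP2 genes, TFAP2D had 0 reads in every library and TFAP2E had 37 in RAminus, 24 in RAplus, 8 in CTminus and 94 in CTplus. In CPM, TFAP2E was highest in CTplus. For TP63, 2 of 11 genes, TP73 and p63 target genes, were at least 2-fold higher in RAminus than in CTminus and none lower, with a median of -0.08 (-0.08 as log2 ratios). They were the Notch ligand JAG1 by 1.71 and the epithelial cell cycle regulator SFN by 1.26, while the basal keratins KRT5 and KRT14 were at 0.20 and -0.11. TP73, which codes for the related factor p73, had 2.34 CPM in RAminus and 0.852 CPM in CTminus, from 60 and 4 reads, a log2 difference of 0.85 that was not called. The list summed to 1148 CPM in RAminus, 1149 CPM in RAplus, 888 CPM in CTminus and 617 CPM in CTplus, with JAG1 most abundant in the RA and CDKN1A, a cell cycle inhibitor, in the control libraries.

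Taking the members as a group, each of the 4 comparisons asks a different question, and they share libraries, so their counts are not independent of each other. A gene was called when log2(CPM + 1) differed by at least 1, that is 2-fold, among genes with at least 4 reads, the study's detection limit, in either library, and all 8 members passed this filter in each comparison. The question of what RA changed in GFP-negative cells is addressed by RAminus against CTminus: 7 of 8 members were called higher, all but TP63, where 6.43% of the 25190 genes tested were called higher and 5.63% lower, and no member was lower. The median of the members was 1.71 (1.92 as log2 ratios with VTCN1 at its floor). The difference between fractions after RA, RAminus against RAplus, put 6 of 8 members higher, all but TNMD and TFAP2C, where 9.29% of 27419 genes were called higher, with a member median of 2.51 (2.87 as log2 ratios) beside 0.01 over all genes. As RAminus levels chose the members, nothing is read from the members' counts in these comparisons.

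The remaining comparisons leave RAminus out. Between the control fractions, 4 of 8 members, GABRP, ITGB6, TFAP2A and TP63, were called higher in CTminus than in CTplus, where 12.8% of 24925 genes were called higher. Their median log2 difference over all 8 was 1.05 (2.64 as log2 ratios) beside -0.19 (0.17) over all genes, and VTCN1 and TNMD, at -0.67 and -0.46, were the members with a negative value. In GFP-positive cells, RAplus against CTplus put 3 of 8 members higher, GABRP, ITGB6 and TFAP2C, where 3.35% of 26551 genes were called higher. With all libraries thinned to the depth of CTminus, 4 members were called in this comparison, GABRP, ITGB6, TFAP2A and TFAP2B, and TFAP2C was not. The thinning was 1 random draw and was not repeated. TFAP2B had 22 reads in RAplus and 12 in CTplus before thinning, so nothing is read from its call. Over all genes 1157 of 18452 were called higher in the thinned libraries, against 889 of 26551 at full depth. At full depth the member median in this comparison was 0.65 (1.89 as log2 ratios) beside 0.00 over all genes. No member was called lower in either comparison, where 10.6% and 1.4% of all genes were, in the order given. Markers of other cells were also called. Fibroblast genes had 7 of 8 higher in CTminus than in CTplus and 8 of 8 higher in RAplus than in CTplus. Surface ectoderm genes had 13 of 15 and 1 of 15, and none of either list was called lower. Cardiomyocyte genes had none higher, and 8 of 8 and 1 of 8 lower. Their part in the members' result was not tested. Both member counts were above the share of all genes. Members low in CTplus had few reads there, between 3 and 53, and the members were chosen together. TP63, with 8 reads in CTminus and 3 in CTplus, passed the filter only through the library where it was higher. Its call therefore cannot support the count of 4. With a pseudocount of 5 CPM the member counts fell to 2, GABRP and ITGB6, and to 1, GABRP. The numbers of all genes called higher fell too, from 3191 to 1551 of 24925 and from 889 to 398 of 26551. No member reached 10 CPM in these 3 libraries. GABRP and ITGB6 were the members called higher in all 4 comparisons, but with a pseudocount of 5 CPM only GABRP was, and with 0.25 CPM also TFAP2A, TFAP2C and TP63. The median of all genes in RAminus against CTminus moved by -0.11 with scaling by library size alone or without mitochondrial and the 10 most abundant genes. The balance of calls over all genes turned, from 1620 higher and 1418 lower to 1386 and 1696, and to 1511 and 1967. It was 1434 and 1578 with upper quartile factors, and did not turn with DESeq2 or pairwise TMM factors. No member's call changed with any of the 5 other scalings tried.

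**Figure D2:**
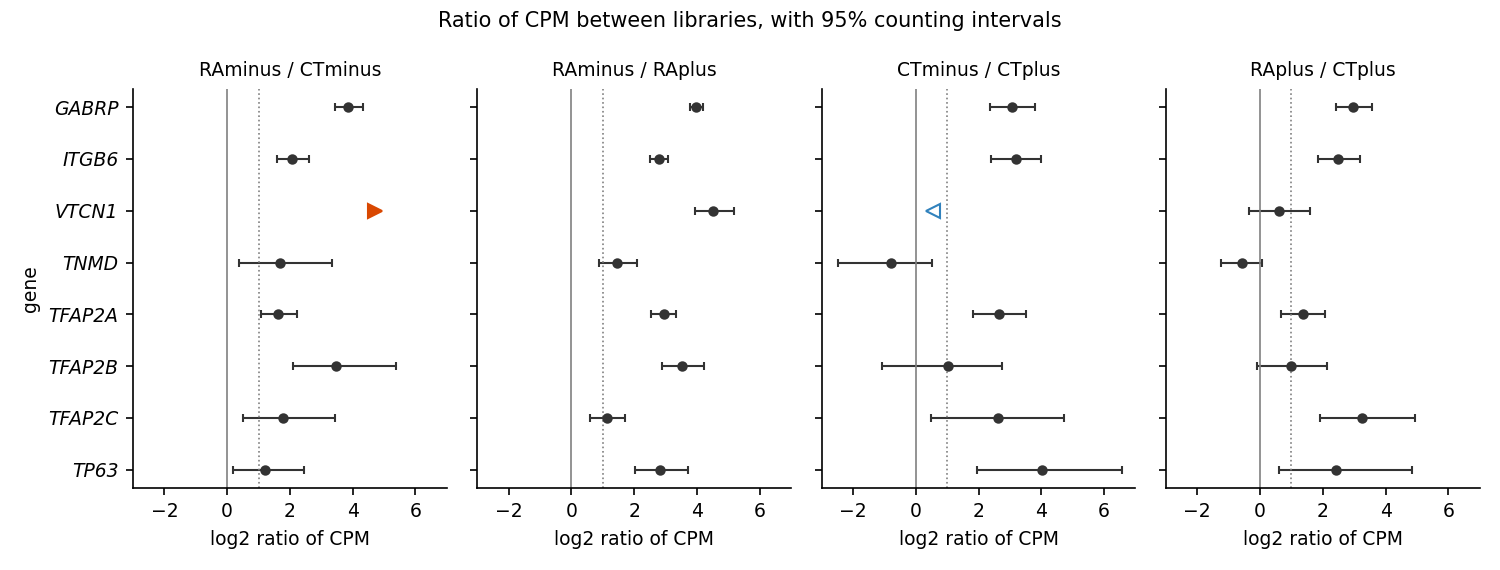
Log2 ratio of CPM of the 8 members in the 4 comparisons, with Clopper-Pearson 95% intervals; VTCN1 has 0 reads in CTminus, so the filled triangle is the lower limit of its interval in RAminus against CTminus, the open triangle the upper limit in CTminus against CTplus, and the dotted lines mark 2-fold. GABRP, ITGB6, TFAP2A, TFAP2C and TP63 lie above a ratio of 1 with their intervals in all 4 comparisons, whereas VTCN1, TNMD and TFAP2B do so only where RAminus is the first library.

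The RA difference was also set side by side in the sorted fractions. As a ratio of CPM, GABRP was 14.5-fold higher with RA in GFP-negative and 7.78-fold higher in GFP-positive cells, and TFAP2A 3.08-fold and 2.56-fold. ITGB6 (4.20-fold and 5.58-fold), TFAP2C (3.40-fold and 9.43-fold) and TP63 (2.31-fold and 5.36-fold) had the larger ratio in GFP-positive cells, with intervals that overlapped between the fractions, as they did for GABRP, TFAP2A and TFAP2B (11.2-fold and 1.96-fold). Only for VTCN1 and TNMD did the intervals not overlap. VTCN1 was 32.2-fold higher with CTminus at its floor (interval from 26.1 upwards) beside 1.51-fold, and TNMD had ratios of 3.18 and 0.667. On the log2(CPM + 1) scale, which understates ratios at low CPM, the order was the other for ITGB6 (1.94 and 1.63) and TP63 (0.87 and 0.50), and TFAP2C had 1.16 and 1.17. Whether the RA difference depended on the fraction was not tested.

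The distribution of each member over the libraries can also be read as shares of its CPM summed over the 4 libraries. RAminus held 93.2% of this sum for VTCN1, 87.7% for GABRP, 82.0% for TFAP2B, 71.0% for ITGB6, 66.4% for TFAP2A, 62.4% for TP63, 55.7% for TFAP2C and 45.0% for TNMD. The members therefore ranged from genes found almost wholly in RAminus to TNMD, with most of its summed level elsewhere. CTminus held the next largest share for TP63 (27.0%), TFAP2A (21.5%) and ITGB6 (16.9%), and RAplus for TFAP2C (25.3%), while for TNMD it was CTplus (24.5%).

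Genes with the most similar shares over the 4 libraries, measured as the sum of absolute differences in percentage points, were named for each member, 3 apiece. Nearest to GABRP were CTSE (3.30 points), the gastric protease cathepsin E, TMPRSS2 (4.85) and the tight junction gene CLDN4 (5.26). For VTCN1 they were CBLIF (3.58), the gastric intrinsic factor, the zinc transporter SLC39A5 (3.87) and the trypsin inhibitor SPINK1 (4.23), and for TFAP2B LEFTY1 (4.41), HHEX (4.76) and FXYD3 (5.20). ITGB6 was nearest to ETV4 (1.84), LYPD6B (2.34) and SPP1 (3.41), TFAP2A to S1PR5 (2.66), CDH13 (3.51) and TLR4 (3.89), and TP63 to NPR3 (1.82), AP1M2 (3.59) and THY1 (3.73). TFAP2C had GEM (5.10), LRRC17 (8.12) and SGCD (10.1), and TNMD ZNF486 (3.38), ARHGAP27 (7.04) and YEATS4 (11.1). No 2 members had a nearest gene in common, and with candidates of at least 5 CPM 16 of the 24 named genes were kept. Similar shares over 4 libraries describe the profile only.

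Levels were compared between members per kilobase of exon (CPM per kb). In RAminus GABRP led with 28.8, ranking 1377 among the 28837 genes with reads, followed by VTCN1 with 6.80, ITGB6 with 5.57, TNMD with 2.30, TFAP2A with 2.16, TFAP2B with 1.54, TFAP2C with 1.21 and TP63 with 0.526. The surface proteins thus stood above the transcription factors, except that the order of TNMD and TFAP2A depended on the length used: with the longest transcript TFAP2A had 4.63 and TNMD 2.81. In CTminus GABRP (1.98) and ITGB6 (1.325) led, and TNMD (0.721) and TFAP2A (0.700) were close. RAplus had GABRP at 1.82, TNMD at 0.836 and ITGB6 at 0.808. CTplus was the exception in that TNMD led with 1.25, above GABRP with 0.234.

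Ratios of reads inside a library do not depend on the scaling of libraries. GABRP had 4.12 reads per ITGB6 read in RAminus (3.82 to 4.46), 1.80 in RAplus (1.44 to 2.26), 1.19 in CTminus (0.749 to 1.91) and 1.29 in CTplus (0.734 to 2.30). Only RAminus stood apart, and the intervals of the other 3 libraries overlapped. VTCN1 had 0.638 reads per ITGB6 read in RAminus (0.571 to 0.713) but 0.192 in RAplus (0.119 to 0.299), 0.708 in CTplus (0.357 to 1.37) and none beside 36 in CTminus, with an interval up to 0.108. This interval lay under those of the other libraries, though close to that of RAplus. TFAP2B relative to TFAP2A was 0.536 in RAminus (0.457 to 0.628), 0.355 in RAplus (0.208 to 0.585), 0.148 in CTminus (0.0377 to 0.425) and 0.462 in CTplus (0.212 to 0.948), where only the intervals of RAminus and CTminus did not overlap. TFAP2C relative to TFAP2A was 0.204 in RAminus (0.162 to 0.256), 0.710 in RAplus (0.471 to 1.06), 0.185 in CTminus (0.0557 to 0.488) and 0.192 in CTplus (0.0577 to 0.509), where only RAplus and RAminus did not overlap. TP63 relative to TFAP2A kept to 0.222 in RAminus (0.177 to 0.276), 0.242 in RAplus (0.128 to 0.430), 0.296 in CTminus (0.116 to 0.670) and 0.115 in CTplus (0.0224 to 0.376), with overlapping intervals.

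As a common reference for epithelial RNA the reads of CDH1, the gene of E-cadherin, were used, a gene chosen after its values were seen. CDH1 had 146 CPM in RAminus and 122 CPM in CTminus, a ratio of 1.19 (1.09 to 1.30), and 16.7 CPM in RAplus and 8.24 CPM in CTplus. Per 100 CDH1 reads GABRP had 91.2 in RAminus, 50.4 in RAplus, 7.48 in CTminus and 13.1 in CTplus. On this scale GABRP was higher in both RA libraries, and the intervals of CTminus and CTplus overlapped. The order of the control libraries depended on the reference gene: per 100 reads of KRT8, a keratin gene of simple epithelia, GABRP had 11.2 in RAminus, 2.20 in RAplus, 1.20 in CTminus and 0.317 in CTplus, with CTminus above CTplus. ITGB6 had 22.1 in RAminus, 28.0 in RAplus, 6.26 in CTminus and 10.2 in CTplus, and TFAP2A had 12.2, 13.9, 4.70 and 11.0 in the same order. Relative to CDH1 both were thus no lower in RAplus than in RAminus, but per 100 KRT8 reads ITGB6 had 2.72 in RAminus and 1.22 in RAplus, and TFAP2A 1.498 and 0.605, so this order too depended on the reference gene. VTCN1 had 14.1 in RAminus, 5.38 in RAplus, 7.20 in CTplus and 0 in CTminus. TNMD had 22.5 in CTplus, 7.40 in RAplus, 2.33 in RAminus and 0.870 in CTminus, an order in which RAminus came after both GFP-positive libraries, whereas per KRT8 read the intervals of RAminus and RAplus overlapped. Whether CDH1 and the members were made by the same cells is not known from bulk RNA.

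**Figure D3:**
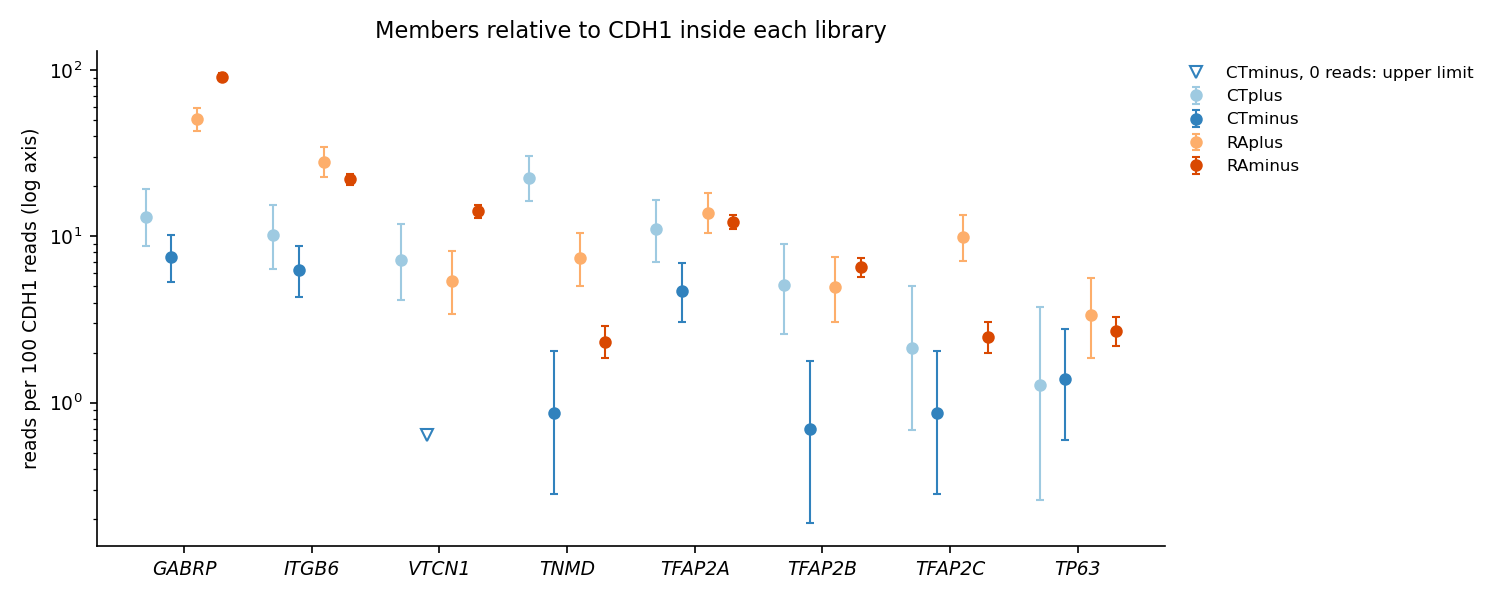
Reads of each member per 100 reads of CDH1 inside each of the 4 libraries (log axis), with Clopper-Pearson 95% intervals; the open triangle is the upper limit for VTCN1 in CTminus, with 0 reads. GABRP is at 91.2 in RAminus and 7.48 in CTminus, whereas TFAP2A is at 12.2 in RAminus and 13.9 in RAplus.

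The label of the genes was set against lists of markers. Of 7 classifier genes of fetal amnion, GABRP, ITGB6, VTCN1 and TNMD among them, 6 had at least 4 reads in RAminus or CTminus, and 5 of these were at least 2-fold higher in RAminus, with a median of 2.05 (2.27 as log2 ratios). This is no independent evidence, as the members are part of the list. The classifiers outside the members were MUC16, a membrane mucin matched by symbol, with 455 reads in RAminus, 63 in RAplus, 15 in CTminus and 32 in CTplus, HOXD9, with 5, 0, 0 and 1, and KRT24, with 0 in all. In CPM, MUC16 thus had the library order of GABRP, with a log2 difference of 2.16 against CTminus, while HOXD9 and KRT24, which are also part of the amnion barcode, were at or near 0. The classifier list summed to 207 CPM in RAminus, 17.6 CPM in RAplus, 21.1 CPM in CTminus and 5.51 CPM in CTplus, with GABRP most abundant except in CTplus, where TNMD was.

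Of 13 other genes known from amnion, 4 were at least 2-fold higher in RAminus than in CTminus and none lower, with a median of 0.34 (0.37 as log2 ratios): WNT6 by 1.75, KRT7 by 1.54, POSTN by 1.52 and IGFBP3 by 1.00. They summed to 3059 CPM in RAminus, 963 CPM in RAplus, 1618 CPM in CTminus and 514 CPM in CTplus, and the most abundant was IGFBP3 in the GFP-negative and BAMBI in the GFP-positive libraries. IGFBP3 took 63.0% of the sum in RAminus and 59.3% in CTminus, and BAMBI 28.0% in RAplus and 56.5% in CTplus. These sums thus follow single genes to a large part. Of 15 surface ectoderm genes, 5 were higher in RAminus than in CTminus and none lower, with a median of 0.42 (0.43), led by KRT15, at 0 reads in CTminus and at least 5.73-fold higher by the floor, OVOL1 (1.67), COL17A1 (1.55) and GRHL2 (1.53). Their sums of 606 CPM in RAminus and 578 CPM in CTminus were close, against 169 CPM in RAplus and 181 CPM in CTplus, and PERP was the most abundant in each. The sums of surface ectoderm genes were thus higher in the GFP-negative fraction of either treatment, as were the levels of TFAP2A and TP63. Of 7 tested genes of differentiated epidermis, 2 were called higher in RAminus, with a median of 0.26 (-0.62): SPRR1B by 1.09, and DSG1, which had 0 reads in CTminus and a bound of 1.77-fold by the floor, under 2-fold. None was called lower, but 2 had a negative value, the larger that of KRTDAP with -0.92, a ratio of 0.285 (0.115 to 0.746). Their sums, 48.1 CPM in RAminus, 32.8 CPM in RAplus, 43.7 CPM in CTminus and 26.0 CPM in CTplus, were mostly KRT10, and the defining genes LOR and FLG had 0 reads in every library.

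Markers of other cells that the sorted fractions could hold moved with the members too, and their part in the result was not tested. The gut and liver list had 9 of 10 genes at least 2-fold higher in RAminus than in CTminus and 1 lower, TTR, with a median of 3.35 (4.10), above the 1.71 of the members. It summed to 722 CPM in RAminus, 42.9 CPM in RAplus, 86.2 CPM in CTminus and 12.3 CPM in CTplus, with AFP, a fetal plasma protein, most abundant in both RA libraries, TTR in CTminus and APOA1 in CTplus, and with MUC13 and MEP1A at 0 reads in CTminus. The airway and foregut list had 5 of 11 higher and 1 lower, median 0.86 (1.99), and summed to 96.6 CPM in RAminus, 10.8 CPM in RAplus, 42.0 CPM in CTminus and 2.90 CPM in CTplus, with KRT4 most abundant in the RA and SOX2 in the control libraries. FOXA2, a factor of endoderm, and FOXE1 had 0 reads in both control libraries. Simple epithelium genes had 4 of 10 higher and none lower, median 0.87 (0.78), led by CLDN4 (3.59) and EPCAM (2.75), with sums of 2813 CPM, 834 CPM, 1659 CPM and 842 CPM in RAminus, RAplus, CTminus and CTplus, KRT8 being the most abundant in each. Gut and liver genes were thus high in RAminus as the members were, and the members' levels do not name a cell type.

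Trophoblast genes had 3 of 12 at least 2-fold higher and none lower by as much in RAminus against CTminus, median 0.51 (-0.35). The 3 were ELF5, LGALS14 and SIGLEC6, all at 0 reads in CTminus. With CTminus at its floor ELF5, with 62 reads in RAminus, was at least 3.78-fold higher, whereas the bounds of LGALS14 (1.89-fold) and SIGLEC6 (1.71-fold) were under 2-fold. The list's sum of 122 CPM in RAminus, 287 CPM in RAplus, 143 CPM in CTminus and 1271 CPM in CTplus was between 80.1% and 99.0% PEG10, and the hormone gene CGA had 4 reads in RAminus, 2 in CTplus and 0 elsewhere. The neural crest list had 4 of 12 higher and 3 lower, median -0.31 (-0.36), and summed to 329 CPM in RAminus, 215 CPM in RAplus, 154 CPM in CTminus and 173 CPM in CTplus, with NGFR most abundant except in CTplus, where MITF was, and with FOXD3 at 0 in RAplus and CTminus. Germ cell genes had 1 of 8 higher and none lower, median 0.06 (-0.32), and summed to 40.3 CPM, 5.87 CPM, 31.1 CPM and 1.95 CPM in RAminus, RAplus, CTminus and CTplus. The gene that was higher, POU5F1, at least 24.1-fold by the floor, was the most abundant in RAminus with 15.4 CPM and had 0 reads in CTminus, where DPPA3, NANOG and DAZL were at 0 as well. All 8 cardiomyocyte genes were lower in RAminus than in CTminus, 3 of them by at least 2-fold, median -0.95 (-0.95). Their sums of 419 CPM in RAminus and 813 CPM in CTminus against 15566 CPM in RAplus and 18201 CPM in CTplus followed the GFP sort. MYH6 was the most abundant in the GFP-positive and TNNT2 in the GFP-negative libraries. Fibroblast genes had 4 of 8 higher and none lower, median 1.11 (1.11), with sums of 71688 CPM in RAminus, 17349 CPM in RAplus, 38354 CPM in CTminus and 4882 CPM in CTplus, COL3A1 being the most abundant in each.

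**Figure D4:**
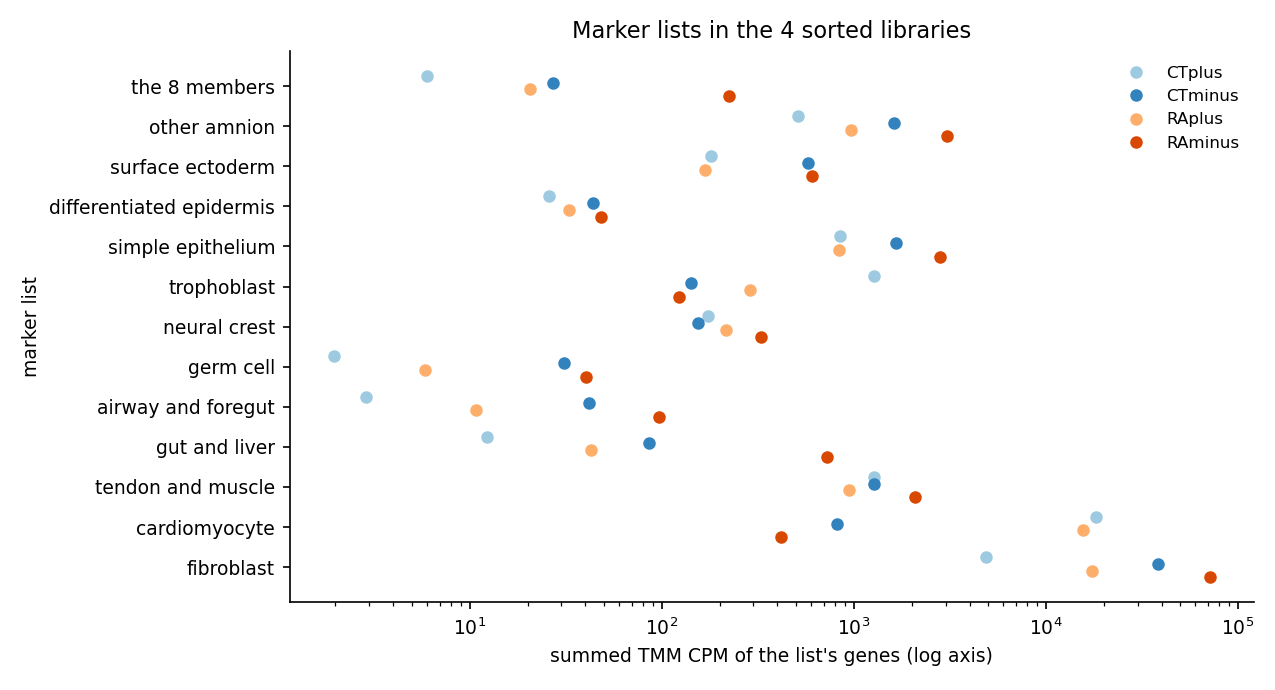
Summed TMM CPM (log axis) of the members and of the marker lists in the 4 libraries, 1 point per library. The members sum to 224 CPM in RAminus, 20.6 CPM in RAplus, 27.3 CPM in CTminus and 5.97 CPM in CTplus, and the gut and liver list to 722 CPM, 42.9 CPM, 86.2 CPM and 12.3 CPM in the same order.

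At least 4 reads were found for all 8 members in RAminus and RAplus and for 7 in each control library, where VTCN1 in CTminus and TP63 in CTplus fell short. At 1 CPM or more there were 8 in RAminus, 6 in CTminus, 5 in RAplus and 2 in CTplus, the last being GABRP and TNMD. The largest share of the members' summed level was that of GABRP in RAminus (59.4%), RAplus (40.9%) and CTminus (33.6%), and that of TNMD in CTplus (30.99%).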

How the data were processed

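The deposited values are read counts per Ensembl gene made by the authors, who aligned reads to hg19 with GSNAP, sorted them with SAMtools 0.1.18, kept uniquely aligned reads and counted them with HTSeq 0.6.1p1 without strand. Reads shared by near-identical copies are left out, so paralogs can be undercounted. CPM were computed with TMM factors (0.951 in RAplus, 0.979 in RAminus, 1.00 in CTplus, 1.07 in CTminus) with edgeR 4.0.16 in R 4.3.3. Differences are of log2(CPM + 1), a scale that understates changes at low CPM. Medians in brackets are of log2 ratios of CPM without a pseudocount, with any gene at 0 reads set to the floor of 3 reads. GENCODE, lifted to GRCh37, gave names, positions, exon lengths and the exon bases shared with other genes. The authors counted with a separate Ensembl annotation, so how reads in shared bases were counted is not known here. The members and lists were chosen with earlier results of these data known. Besides the 8 members and the reference gene CDH1, genes were named from the classifier, GABA-A receptor, integrin, B7, TFAP2 and p63 lists and, of every other list, from the most abundant gene per library, genes at 0 reads and up to 4 with the largest difference between RAminus and CTminus. The 3 nearest genes of each member, among candidates of at least 10 CPM, were also named. The alternatives were scaling by library size, DESeq2 1.42.0 size factors, upper quartile, TMM of each pair and library size less mitochondrial and the 10 most abundant genes, a pseudocount of 0.25 or 5 CPM, thinning to the smallest library, a filter at 10 CPM, a 4-fold threshold, a detection limit of 1 CPM, candidates at 5 CPM, the longest transcript and, chosen after seeing the data, KRT8 as the reference gene. The procedure was tested on simulated data. GABRQ and SCX were not matched and were not analysed here, and the lists do not hold every gene of the groups they are named for. Python 3.11.15 with matplotlib 3.10.9 drew the figures.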

Additional observations from a re-analysis of the deposited data

How the results depend on the processing

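Each condition has 1 library. The sorted fractions of a culture form a pair, but no paired analysis was made. Under the 5 other scalings the members called higher in each comparison were the same as with TMM, 7 of 8 in RAminus against CTminus, 6 in RAminus against RAplus, 4 in CTminus against CTplus and 3 in RAplus against CTplus. A filter at 10 CPM in either library, which by its construction tests fewer genes, left 4, 4, 0 and 0 members in the same order. The 4 members, GABRP, ITGB6, VTCN1 and TFAP2A, passed it only through RAminus, the library that chose the members, so nothing is read from these counts. Where 0 were left, no member passed the filter and none was tested. Of all genes the filter left 574 of 11606, 1474 of 11850, 1567 of 11806 and 463 of 11186 called higher. A 4-fold threshold, which by its construction calls fewer, left 3, 5, 2 and 1. The share of all genes called at 4-fold was not computed, so nothing is read from these counts either. With a pseudocount of 5 CPM the counts were 5, 5, 2 and 1, where TP63 was under 2-fold in RAminus against RAplus (0.68). With 0.25 CPM they were 8, 8, 5 and 5. The numbers of all genes called higher moved too. In the same order they were 1620, 2546, 3191 and 889 with the reported pseudocount. They were 466, 1387, 1551 and 398 with 5 CPM, and 4658, 4685, 4263 and 2184 with 0.25 CPM. The cause was not tested. Of 32 differences of members, 29 kept their sign in all 8 alternatives of scaling, pseudocount and depth. The other 3 changed sign with all libraries thinned to the smallest: TNMD in CTminus against CTplus (0.50) and in RAplus against CTplus (0.24), and VTCN1 in RAplus against CTplus (-0.19). In RAminus against CTminus, TNMD and TFAP2C were under 2-fold with a pseudocount of 5 CPM (0.47 and 0.51), and TFAP2C also in thinned libraries (0.97), where 6 of 8 members were called. The thinning was 1 random draw and was not repeated, so calls that rest on few reads are uncertain. Thinned libraries called 4 members in RAplus against CTplus, with TFAP2A and TFAP2B (1.29) and without TFAP2C (0.84), and 7 in RAminus against RAplus, with TNMD. Of all genes they called 1157 of 18452 and 2823 of 19014 higher in these comparisons, and 1716 of 19618 in RAminus against CTminus. Of 360 values of the lists, 324 were within 1.5 times the reported one. With KRT8 in place of CDH1 as the reference gene, an alternative chosen after seeing the data, all 15 ratios of members between the fractions of a treatment moved and 7 changed direction; the cause was not tested. The depth of CTminus limits VTCN1, TNMD, TFAP2B, TFAP2C and TP63, with 0 to 8 reads there.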
